A study of Saccharomyces cerevisiae with 4 samples.

Results

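High-affinity iron uptake in Saccharomyces cerevisiae is represented here by 10 well-studied genes of the cell surface and its transport vesicles, and their response to acetic acid is described. They were chosen by name: the ferric reductase genes FRE1 (YLR214W) and FRE2 (YKL220C), the ferroxidase gene FET3 (YMR058W) and its permease gene FTR1 (YER145C), the cell wall mannoprotein genes FIT2 (YOR382W) and FIT3 (YOR383C), and the siderophore transporter genes SIT1 (YEL065W), ARN1 (YHL040C), ARN2 (YHL047C) and ENB1 (YOL158C). Of these 10 genes, 9 had a row among the 5799 genes of the deposited table, each with a value on all 4 arrays. ENB1, the enterobactin transporter gene, was not analysed here.

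In the reductive pathway, the Fre enzymes reduce ferric iron at the surface, and the multicopper oxidase Fet3 and the permease Ftr1 then carry it across the plasma membrane as one complex. In the second pathway, the Arn family transporters take up iron bound to siderophores, chelators made by other microbes, since this yeast makes none of its own. The Fit mannoproteins help to hold siderophore-bound iron in the cell wall. Transcription of both pathways is driven by Aft1, with its paralog Aft2, when iron-sulfur cluster supply is low.

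The cells were of the haploid laboratory strain BY4741 (MATa), which has a wild-type LYS2 gene and carries the mutations his3Δ1, leu2Δ0 and met15Δ0, together with a ura3 deletion. The labels number that ura3 allele 0, 1, 2 and 3 over the 4 samples, although the strain name is the same for all. Acid-treated cells had received 30 mM acetic acid for 2 h, as 50 ml of culture, and untreated cells none. Both had grown at 28 °C in rich medium (YPD) to an absorbance of 0.6, and both carry the same auxotrophies. Each array held treated RNA in one dye and untreated RNA in the other, with dyes swapped between arrays. Cy5 arrays 1 and 2 carried the treated RNA in Cy5, and Cy3 arrays 1 and 2 carried it in Cy3.

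Values are ratios of the channels, taken as log2 of treated over untreated, so a negative value means less signal from treated cells; base 2 is an assumption, and the direction is likely rather than stated. With this reading, 7 of 8 tested targets of Haa1, the weak-acid transcription factor, lay above 0, with a median of 3.94 and SPS100 at -0.40 as the exception. All pairs of arrays correlated above 0 across genes (Pearson's r 0.41 to 0.80), the lower values all with Cy3 array 1. That array also had the widest spread, with an interquartile range of 1.11 against 0.60 to 0.72 on the others. The files give ratios and no signal, so no level of any transcript can be stated, and mating type cannot be checked from its marker genes. URA3, deleted in this strain, still had ratios of -0.39, -0.16, -1.94 and -0.32 on Cy5 arrays 1 and 2 and Cy3 arrays 1 and 2, so a listed ratio does not by itself show that a transcript was present. In RNA of whole cultures, a change in every cell cannot be told apart from a change in some cells.

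After acetic acid, 4 of the 9 genes fell and 1 rose, and 4 did not pass the test. SIT1 fell by 3.03 on the log2 scale, or 8.16-fold, and FTR1, FET3 and FRE1 by 1.46, 1.27 and 1.06. FIT3 was 1.83-fold higher. The ratios of FIT2, ARN1, ARN2 and FRE2 lay within 0.20 of 0. A gene was called where its adjusted p was under 0.05 in a limma fit over all 5291 genes with values on at least 3 arrays. The share of all tested genes called lower was 2.02% and called higher 8.85%. The same sign on every array was seen for 6 of the 9 genes and for 42.6% of all genes tested. The median ratio of the 9 genes was -0.17, beside -0.04 over all genes tested. By array, 8, 5, 6 and 6 of the 9 lay below 0 on Cy5 arrays 1 and 2 and Cy3 arrays 1 and 2.

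**Figure D1:**
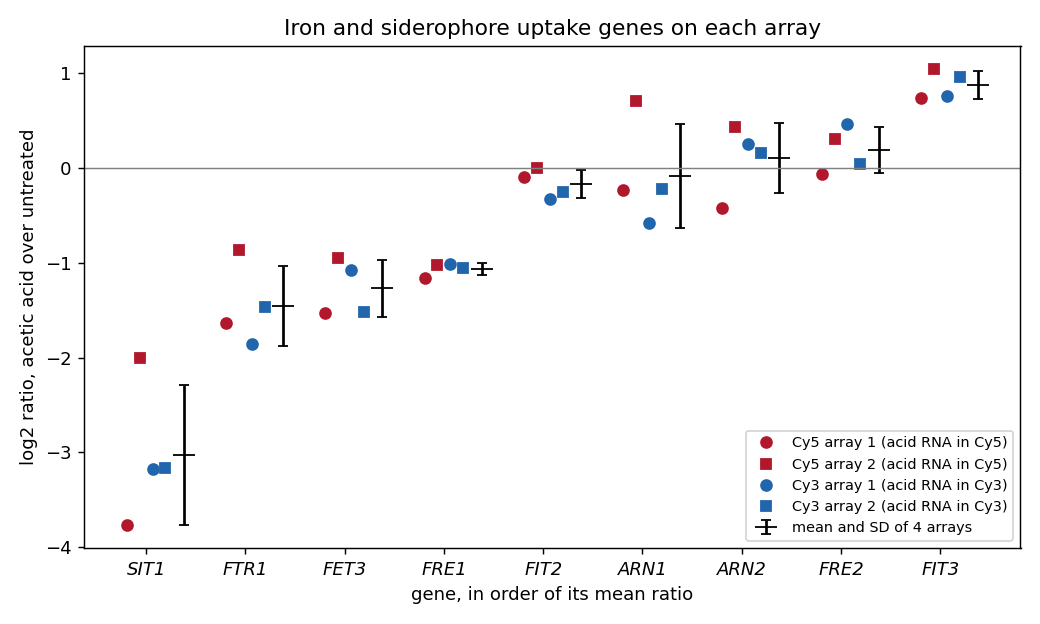
Log2 ratio of acetic acid over untreated (vertical axis) for each of the 9 genes (horizontal axis, in order of the mean), with a point for each of the 4 arrays and a bar for their mean and SD. All points of SIT1, FTR1, FET3 and FRE1 lie at -0.86 or below, and all points of FIT3 lie at 0.74 or above.

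In the reductase pair, FRE1 encodes the main surface reductase of ferric and cupric ions. Its log2 ratio was -1.16, -1.03, -1.01 and -1.06 on Cy5 arrays 1 and 2 and Cy3 arrays 1 and 2. The ratio hardly differed between arrays, and the mean was -1.06 ± 0.065 (SD, n = 4; 95% interval -1.38 to -0.74; adjusted p = 0.00494). Its rank did differ: 942 from the lowest on Cy3 array 1, the array of widest spread, against 83, 113 and 146 on the others. Only 1.3% of the genes tested had a smaller SD. FRE2, which encodes a second surface reductase that acts on ferric iron, had ratios of -0.07 and 0.31 on the Cy5 arrays and of 0.46 and 0.04 on the Cy3 arrays. These values straddled 0, with a mean of 0.18 ± 0.24 (adjusted p = 0.445; 95% interval -0.19 to 0.56). FRE1 minus FRE2 was -1.47 to -1.09 over the arrays, with a mean of -1.25 ± 0.19.

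FET3, the ferroxidase gene, had log2 ratios of -1.53 and -0.95 on the Cy5 arrays and of -1.08 and -1.52 on the Cy3 arrays. FTR1, the permease gene, had -1.63 and -0.86 on the Cy5 arrays and -1.86 and -1.47 on the Cy3 arrays. Both genes were below 0 on 4 of 4 arrays, and both were nearest to 0 on Cy5 array 2. On Cy3 array 1, FET3 ranked 879 and FTR1 375 from the lowest, against ranks of 25 to 204 on the other arrays. The mean ratio of FET3 was -1.27 ± 0.30 (adjusted p = 0.0064) and that of FTR1 -1.46 ± 0.43 (adjusted p = 0.00722), with 95% intervals of -1.67 to -0.87 and -1.93 to -0.98. The products of these genes work as a complex, and the difference between their ratios had no common sign: FET3 minus FTR1 was 0.10, -0.09, 0.78 and -0.05, or 0.19 ± 0.40 on average. Without Cy3 array 2, FTR1 missed the threshold (ratio -1.45, adjusted p = 0.0518).

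Among the siderophore transporters, SIT1 encodes the carrier of ferrioxamine B and related hydroxamate siderophores. Its log2 ratio was -3.77 and -2.01 on the Cy5 arrays and -3.17 and -3.16 on the Cy3 arrays. The array nearest to 0 was Cy5 array 2, and even there only 1 gene of 5505 had a lower value. On the other arrays SIT1 ranked 1 from the lowest of 5484 values, 50 of 5456 and 9 of 5133. The mean of -3.03 ± 0.74 (95% interval -3.72 to -2.34; adjusted p = 0.00163) was the lowest of the 5291 genes tested. By comparison FTR1, FET3 and FRE1 ranked 14, 36 and 87. The SD of SIT1 was larger than that of 88.1% of genes, and its mean ran from -3.37 to -2.78 when each array was left out in turn.

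ARN1, the carrier gene for ferrichrome-type siderophores, had log2 ratios of -0.23 and 0.70 on the Cy5 arrays and of -0.58 and -0.22 on the Cy3 arrays. ARN2, the carrier gene for triacetylfusarinine C, had -0.43 and 0.43 on the Cy5 arrays and 0.25 and 0.16 on the Cy3 arrays. Each of these genes had arrays on both sides of 0. Their mean ratios were -0.08 ± 0.55 (adjusted p = 0.824) and 0.10 ± 0.37 (adjusted p = 0.723), with 95% intervals of -0.64 to 0.47 and -0.34 to 0.54. SIT1 lay below its relative ARN1 on every array, with differences of -3.54 to -2.59 and a mean of -2.94 ± 0.42. It also lay below FET3 of the reductive pathway, with differences of -2.24 to -1.06 (mean -1.76 ± 0.53).

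FIT2 and FIT3 are neighbours on chromosome XV and encode mannoproteins of the cell wall. FIT3 had log2 ratios of 0.74 and 1.04 on the Cy5 arrays and of 0.76 and 0.96 on the Cy3 arrays. All 4 arrays were above 0, and the mean was 0.87 ± 0.15 (95% interval 0.54 to 1.21; adjusted p = 0.0134). The call was kept without Cy3 array 1 (ratio 0.91, adjusted p = 0.00993). It was lost without Cy5 array 1, Cy5 array 2 or Cy3 array 2, where the ratio was 0.92, 0.82 and 0.85 and the adjusted p 0.0577, 0.0699 and 0.0817. FIT2 had -0.10 and -0.002 on the Cy5 arrays and -0.33 and -0.26 on the Cy3 arrays. Its values were below 0 on every array but small, with a mean of -0.17 ± 0.15 (adjusted p = 0.434; 95% interval -0.51 to 0.17). FIT2 lay below FIT3 on every array, with differences of -1.21 to -0.84 and a mean of -1.04 ± 0.15. FIT1, the third gene of this family, had a ratio of 0.35 ± 0.32 (adjusted p = 0.216).

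**Figure D2:**
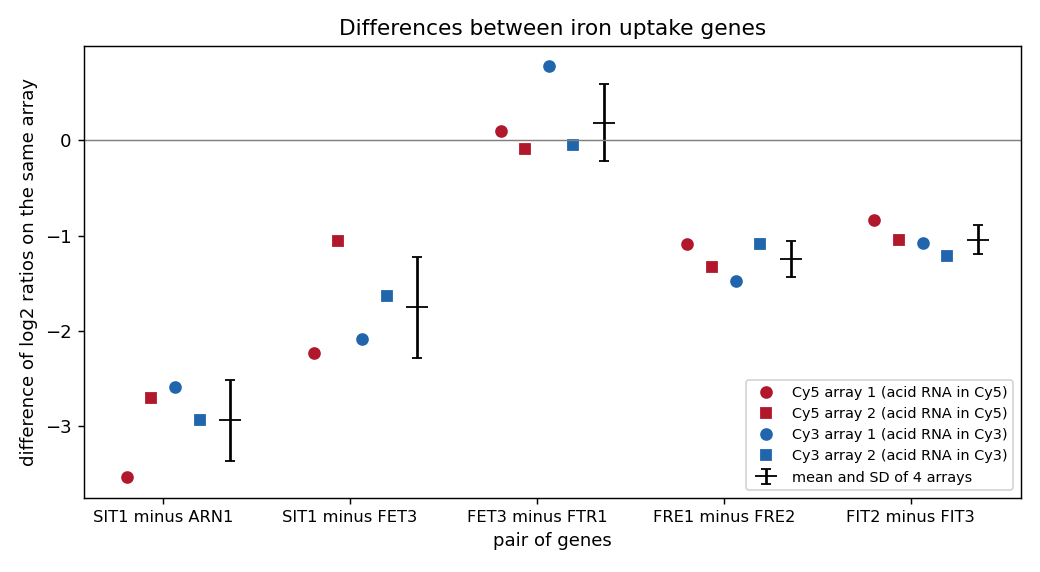
Difference of log2 ratios between 2 genes on the same array (vertical axis) for 5 pairs (horizontal axis), with a point for each of 4 arrays and a bar for the mean and SD. FET3 minus FTR1 lies on both sides of 0, and the other 4 pairs lie below 0 on all 4 arrays.

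These 5 pairs were compared with an exact two-sided sign-flip permutation test over the 4 arrays, whose smallest possible p is 0.125. That p was obtained for SIT1 against ARN1, SIT1 against FET3, FRE1 against FRE2 and FIT2 against FIT3 (Benjamini-Hochberg adjusted p = 0.156 over 5 pairs), so this test cannot take a pair of genes past 0.05 whatever the size of its difference. For FET3 against FTR1 the exact p was 0.625. In the order of the means, from SIT1 through FTR1, FET3, FRE1, FIT2, ARN1, ARN2 and FRE2 to FIT3, the ranges over the 4 arrays separated neighbours at 3 places. SIT1 lay wholly below FTR1, with a gap of 0.15. FRE1 lay wholly below FIT2, with a gap of 0.69, and FRE2 wholly below FIT3, with a gap of 0.28. FTR1, FET3 and FRE1 overlapped as neighbours in that order, as did FIT2, ARN1, ARN2 and FRE2. The order comes from these same values, and whether the gaps mark groups of genes was not tested.

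**Figure D3:**
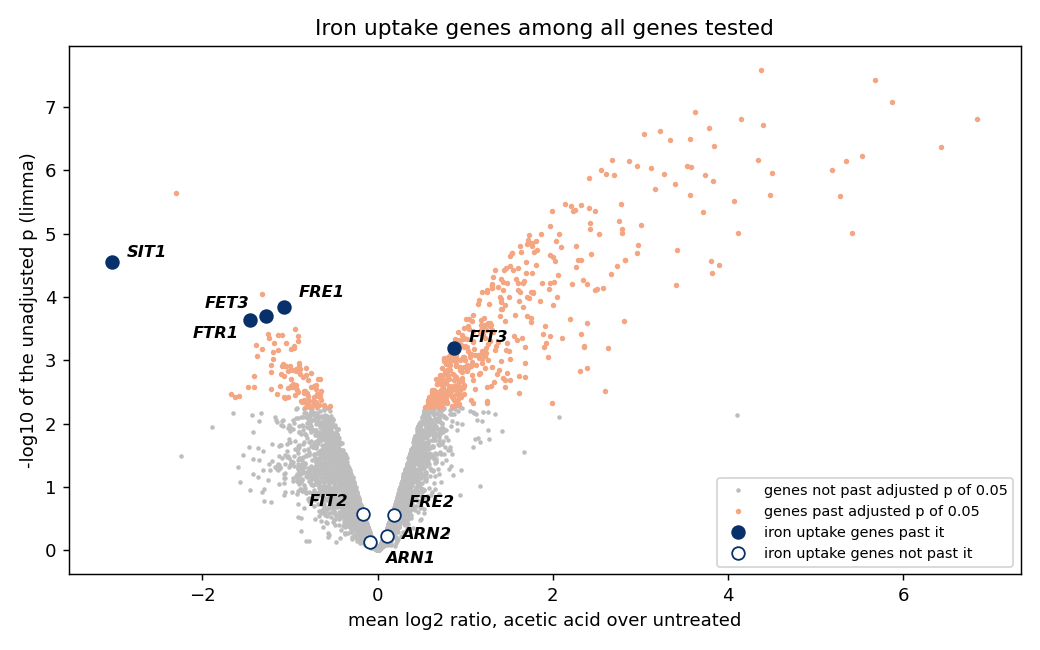
Mean log2 ratio (horizontal axis) against the -log10 of the unadjusted limma p (vertical axis) for 5291 genes, with the 9 iron uptake genes in dark blue, filled where they passed an adjusted p of 0.05. SIT1 has the lowest mean ratio of all, while FIT2, ARN1, ARN2 and FRE2 sit near 0.

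The 5 called genes kept their sign in both orientations of the dyes. For SIT1 the mean was -2.89 with acid in Cy5 and -3.17 with acid in Cy3, for FET3 -1.24 and -1.30, for FTR1 -1.25 and -1.67, for FRE1 -1.09 and -1.03, and for FIT3 0.89 and 0.86. Among the other genes, ARN1 was on opposite sides of 0, with 0.24 with acid in Cy5 and -0.40 with acid in Cy3. ARN2 had 0 and 0.21, FRE2 0.12 and 0.25, and FIT2 -0.05 and -0.29. In a fit with a term for orientation, none of the 9 genes differed between orientations in limma (adjusted p of 0.685 to 0.981), and none had an unadjusted p under 0.05, the smallest being 0.160 for ARN1. Of all genes, 0.227% were called in that comparison.

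The activator genes themselves had unlike ratios. AFT1, which encodes the main activator of iron uptake genes, had log2 ratios of -0.81 and -0.85 on the Cy5 arrays and of -0.53 and -0.44 on the Cy3 arrays. It was lower on 4 of 4 arrays, by 0.66 ± 0.20 on the log2 scale, which just passed (adjusted p = 0.0402). The call was lost without Cy5 array 1, Cy5 array 2 or Cy3 array 2 (adjusted p = 0.160, 0.141 and 0.112), and with same-numbered arrays averaged (adjusted p = 0.107). AFT2, its paralog, had a ratio of 0.54 ± 0.58 (adjusted p = 0.180), from -0.12 to 1.29.

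Of 12 genes for the regulation and storage of iron, 11 were tested: AFT1 fell, CTH1 rose and 9 did not pass, with a median of 0.14. Over all genes tested, 2.02% were called lower and 8.85% higher. CTH1 encodes an mRNA-binding protein that, with its paralog Tis11 (also called Cth2), promotes decay of transcripts for iron-using proteins when iron is scarce. Its ratios were 1.02 and 1.30 on the Cy5 arrays and 1.29 and 1.40 on the Cy3 arrays, all above 0 (mean 1.25 ± 0.16; adjusted p = 0.00322). TIS11, which is itself an Aft1 target, had ratios of -0.35 and 1.05 on the Cy5 arrays and of -0.09 on Cy3 array 1 (mean 0.20 ± 0.74, n = 3; adjusted p = 0.681).

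Among 19 other targets of Aft1 and Aft2, 16 had a row and 14 were tested. ISU1, a scaffold for assembly of iron-sulfur clusters, rose, none fell, and 13 did not pass. The median was -0.11. The rise was 7.14% of the tested list, beside 8.85% of all genes tested called higher and 2.02% called lower. ISU1 had ratios of 2.21 and 2.85 on the Cy5 arrays and of 1.56 and 2.94 on the Cy3 arrays (mean 2.39 ± 0.64; adjusted p = 0.00271), and its paralog ISU2 a mean of 0.0005 ± 0.13 (adjusted p = 0.998). FTH1 and FET5 encode the vacuolar counterparts of the Ftr1 and Fet3 proteins. FTH1 had a ratio of -0.07 ± 0.21 (adjusted p = 0.789), with values on both sides of 0. FET5 had -0.58 and -0.19 on the Cy5 arrays but -3.73 and -1.66 on the Cy3 arrays, a mean of -1.54 ± 1.58 that did not pass (adjusted p = 0.130; orientation term unadjusted p = 0.00786, adjusted p = 0.586). The reductase gene FRE4 had values on the Cy3 arrays only (-2.14 and -1.95), and FRE5, the neighbour of FIT3, had 0.79 and -0.88 on 1 array of each orientation. Neither was tested.

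**Figure D4:**
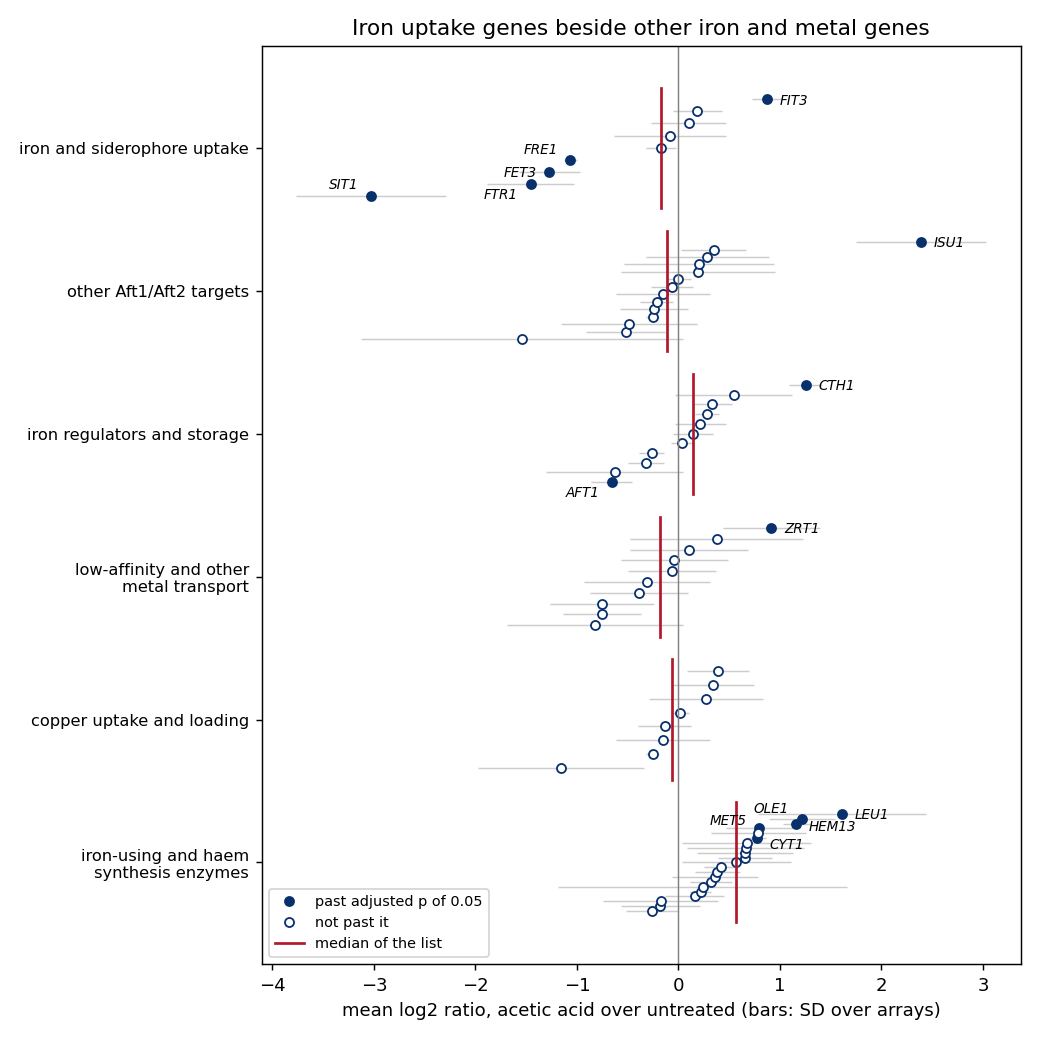
Mean log2 ratio of each tested gene (horizontal axis; bars show the SD over its arrays) in 6 lists of iron and metal genes (rows), with filled points for genes past an adjusted p of 0.05 and a red line at each list's median. In the fit as reported, the iron uptake genes hold 4 of the 5 lower calls in these lists, and 18 of 21 iron-using and haem synthesis genes lie above 0. Over all genes tested, 2.02% were called lower and 46.7% lay above 0. Other settings of the fit added lower calls in other lists, such as FET5 with a dye term. ATX1 and CCC2, neither of them called, are in both the list of other Aft1/Aft2 targets and the copper list.

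Copper is a cofactor of Fet3. Of all genes tested, 10.9% passed in limma in either direction. None of 8 genes for copper uptake and delivery did (median -0.06), too few genes to set this list apart. Of the 5291 genes tested, 1579 had an unadjusted limma p under 0.05. Among the copper genes there was 1, the vacuolar copper transporter gene CTR2, with a ratio of -1.16 ± 0.82 (adjusted p = 0.0653). Next came FRE7, a reductase gene under control of the copper-sensing factor Mac1, at 0.39 ± 0.31 (adjusted p = 0.175). Without Cy3 array 1, where CTR2 had -2.36 against -0.90 to -0.54 elsewhere, CTR2 was called lower. Of 12 genes for low-affinity iron uptake and transport of other metals, 10 were tested. The zinc transporter gene ZRT1 rose by 0.92 ± 0.47 (adjusted p = 0.0418), none fell, and 9 did not pass, with a median of -0.18. That rise was 10% of the tested list, beside 8.85% of all genes tested called higher and 2.02% called lower. ZRT1 lost its call without Cy5 array 1, Cy5 array 2 or Cy3 array 2 (adjusted p = 0.148, 0.130 and 0.147) and with same-numbered arrays averaged (adjusted p = 0.0632), and without Cy3 array 1 PMR1, a calcium and manganese pump gene, was called lower. FET4, the low-affinity iron transporter gene, had a ratio of -0.06 ± 0.43 (adjusted p = 0.849).

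Genes for enzymes that use iron, together with haem synthesis genes, had a median of 0.57 over 21 tested, with 18 above 0, where 46.7% of all genes tested lay. The test was passed by 5, all higher, and missed by 16, while 8.85% of all genes tested were called higher. LEU1, an iron-sulfur enzyme of leucine synthesis, rose by 1.61 ± 0.83 (adjusted p = 0.0252). It lost the call without Cy5 array 2 or Cy3 array 2 (adjusted p = 0.079 and 0.122). Its mean was 1.00 with acid in Cy5 and 2.23 with acid in Cy3 (limma orientation term, unadjusted p = 0.0195, adjusted p = 0.636). OLE1, the di-iron fatty acid desaturase, rose by 1.22 ± 0.32 (adjusted p = 0.0086). HEM13, an oxygen-dependent enzyme of haem synthesis that does not itself hold iron, rose by 1.16 ± 0.13 (adjusted p = 0.00403). CYT1, for cytochrome c1, rose by 0.77 ± 0.09 and MET5, for a sulfite reductase subunit, by 0.80 ± 0.33 (adjusted p = 0.0171 and 0.0365); both lost the call with same-numbered arrays averaged (adjusted p = 0.0762 and 0.0927). Leaving out Cy5 array 1, Cy5 array 2, Cy3 array 1 and Cy3 array 2 in turn gave 3, 2, 9 and 2 rises in this list. Over all genes tested, the same fits called 251, 225, 604 and 184 higher. HEM13 and OLE1 kept their calls in all 4 of these fits.

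The genes nearest to the mean profile of FET3 and FTR1, among 4887 other genes with 4 values, were BAP2, PDR5, FUI1, APE3 and PTR2. Likeness was the Euclidean distance over the 4 arrays, which was 0.44 for BAP2, 0.46 for PDR5, 0.50 for FUI1, 0.64 for APE3 and 0.65 for PTR2. FET3 and FTR1 each lay 0.396 from this mean, which they themselves define, and 0.792 from each other. Their distance to it therefore cannot be set beside those of the other genes. BAP2, a permease gene for branched-chain amino acids, had ratios of -1.38 and -1.11 on the Cy5 arrays and of -1.60 and -1.19 on the Cy3 arrays. This distance depends on the size of the ratios. SIT1 had the lowest mean of all genes tested (-3.03), and the next lowest was -2.30, for GCV2, so no gene could lie near SIT1. The closest gene, GCV2, for a subunit of the glycine cleavage complex, was 2.12 away, followed by SIZ1 at 3.46 and PTR2 at 3.47. GCV2 had -2.18 and -2.52 on the Cy5 arrays and -2.13 and -2.38 on the Cy3 arrays, without the spread between Cy5 arrays 1 and 2 that SIT1 showed.

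**Figure D5:**
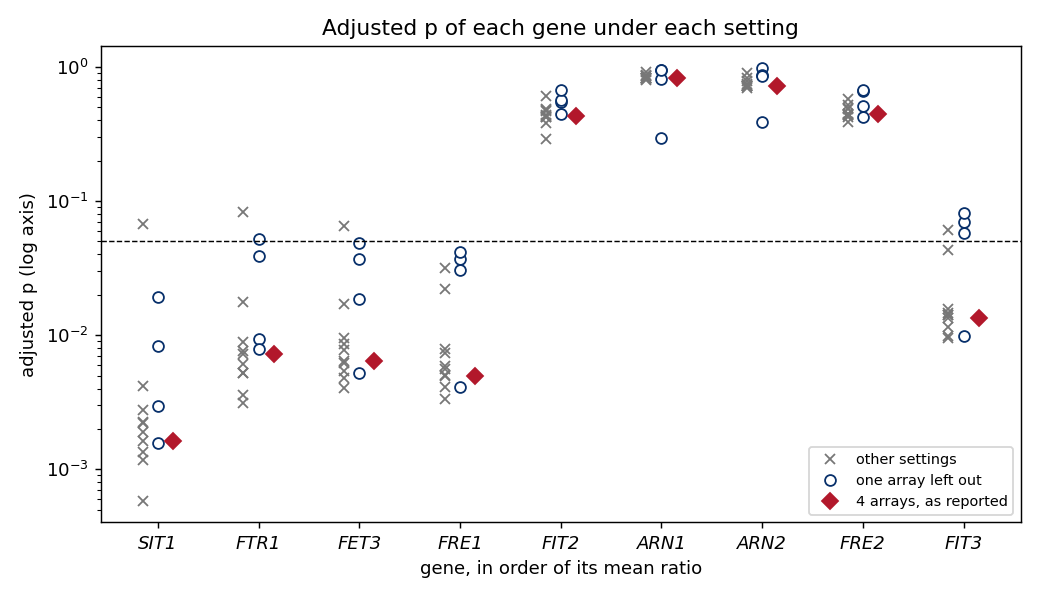
Adjusted p of each of the 9 genes (vertical axis, log scale) with 4 arrays as reported, with one array left out, and under the other settings of the fit, with a dashed line at 0.05. FRE1 stays under the line in all 14 alternatives, SIT1 and FET3 in 13, FTR1 in 12 and FIT3 in 10, while FIT2, ARN1, ARN2 and FRE2 stay above it in all.

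Over 14 alternatives, FRE1 passed the threshold in 14, with adjusted p of 0.00334 to 0.0416. SIT1 and FET3 passed in 13, FTR1 in 12 and FIT3 in 10. FIT2, ARN1, ARN2 and FRE2 passed in none. SIT1, FET3 and FTR1 missed it where each gene's variance was estimated from its own 4 values alone (adjusted p = 0.0677, 0.0650 and 0.0827), and FIT3 where same-numbered arrays were averaged (adjusted p = 0.0605).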

How the data were processed

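RNA of acid-treated and untreated BY4741 cultures was compared on 4 arrays with 2 colours, after acid-phenol extraction and indirect labelling, per the labels' protocols. The authors deposited 1 log2 ratio of the channels per gene and array; base 2 is an assumption from the values. How the arrays were scanned, corrected, normalized and filtered is not given in the sources used here. Arrays of opposite orientation correlated above 0, so the deposited signs were kept. Signal over background is unknown, and the number of arrays limits the precision. Of 5799 gene names, 5331 matched a symbol of RefSeq assembly R64.

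Genes measured on at least 3 arrays (5291) were tested against 0 with limma 3.58.1 (R 4.3.3; two-sided, Benjamini-Hochberg over all of them, moderated 95% intervals), and 508 were left out. The fit was tested on simulated data with independent arrays, so that check does not cover arrays that share RNA. Arrays are biological replicates per the design text; if same-numbered arrays share RNA, n is 2. Deviations of same-numbered arrays correlated at 0.252, and with only 2 pairs no pairing was assumed. Alternatives were a dye term, a replicate block, averaging, 3 scalings, other minimums of values, other variance estimates and leaving out each array.

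The members and lists were chosen with earlier results of these data known. Named are all members, other listed genes that passed (in a list with none, the 2 of smallest p), AFT1, AFT2 and the nearest profiles. FIT1, FTH1, FET5, FRE4, FRE5, ISU2, TIS11 and FET4 were added as relatives or neighbours, SPS100 and URA3 for checks, and PMR1, CCP1 and RNR2 for changed calls, after their values were seen. ATX1 and CCC2 are named only for being in both the Aft1/Aft2 and the copper list.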

Additional observations from a re-analysis of the deposited data

Results flagged for a closer look

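Of 26 genes examined on 4 arrays, 3 had 1 array far from the other 3, a gap that chance gives in about 1 of 20 such groups. None was an iron uptake gene. PDR5 and APE3 were examined because they lie nearest to the mean profile of FET3 and FTR1, and SIZ1 because it is among the 3 genes least far from SIT1, at a distance of 3.46. PDR5 had -0.51 on Cy5 array 2, against -1.52 to -1.36 on the other arrays. APE3 had -0.39 on that same array, against -1.41 to -1.25. SIZ1 had -3.02 on Cy3 array 1, against -1.14 to -1.05. The mean profile of FET3 and FTR1 is itself nearest to 0 on Cy5 array 2, so the choice of PDR5 and APE3 favours genes that are nearest to 0 there.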

How the results depend on the processing

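Over all genes, 107 were lower and 468 higher; the counts were 268 and 541 after quantile normalization, 189 lower with scaled arrays, 207 lower with a dye term, 71 and 306 with same-numbered arrays averaged, and 16 and 188 without shared variance. Leaving out each array gave 13 to 221 lower and 184 to 604 higher. Among the iron uptake genes, lower calls numbered 4, except 1 (FRE1) without shared variance and 3 to 4 on leaving out an array; higher calls numbered 1, except 0 with same-numbered arrays averaged and 0 to 1 on leaving out an array. With the replicate block, whose consensus correlation was -0.109, the iron uptake genes again gave 4 lower and 1 higher calls and all genes 176 lower; the block also called CTR2 and PMR1 lower, 1 copper and 1 other metal gene, and CCP1 and RNR2 higher, for 7 iron-using genes. It lost none of the calls on these lists. None of these 4 added calls was made with same-numbered arrays averaged.

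Other Aft1/Aft2 targets had 1 lower call (FET5) with a dye term, with same-numbered arrays averaged and after quantile normalization, and 1 (FRE4) with a minimum of 2 arrays, and 0 higher without shared variance. Regulators and storage had 0 lower calls with same-numbered arrays averaged or without shared variance, and 0 to 1 on leaving out an array. Other metal genes had 2 lower calls with a dye term and 1 with arrays centred, scaled or quantile normalized, with values on all 4 arrays, and 0 to 1 on leaving out an array; they had 0 higher calls with averaging or without shared variance, and 0 to 1 on leaving out an array. Copper genes had 1 lower call with a dye term, scaling or quantile normalization and 0 to 1 on leaving out an array. Iron-using enzymes had 3 higher calls with averaging, 2 without shared variance, and 2 to 9 on leaving out an array. The sign of 3 small values turned: ARN1 was 0.084 without Cy3 array 1, ARN2 -0.0043 without Cy5 array 2, and FET3 minus FTR1 -0.012 without Cy3 array 1, with ranges on leaving out an array of -0.34 to 0.08, -0.0043 to 0.28 and -0.01 to 0.28. The causes were not tested.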
